A study of Homo sapiens with 2 samples.

Results

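The genes described here are 9 genes of the NRF2 antioxidant response, chosen by symbol: NFE2L2, which encodes NRF2, KEAP1, which encodes its inhibitor, and 7 established targets, HMOX1, NQO1, GCLC, GCLM, SLC7A11, TXNRD1 and SRXN1. Each of the 9 symbols matched 1 of the 60623 gene entries in the deposited tables, and all 9 passed the count minimum. The libraries come from HepG2, a human hepatocellular carcinoma cell line recorded as wild type, and there is 1 library per group. Both groups received 1 mM free fatty acids (FFA), oleic and palmitic acid bound to albumin, for 24 h to model steatosis. The FFA + 9-cis-RA group was also given 9-cis-retinoic acid (9-cis-RA) at 10 μM, a ligand that activates the retinoid X receptors (RXRs) and the retinoic acid receptors (RARs). The paper's methods place 9-cis-RA after the FFA, for 24 h, while its results describe a co-treatment. Whether both libraries had the same total time in culture is therefore not clear. HepG2 cells are a transformed line, so the values are those of a hepatoma culture and not of primary hepatocytes.

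In unstressed cells KEAP1 links NRF2 to a CUL3 ubiquitin ligase, and NRF2 is broken down. Oxidants and electrophiles modify cysteines of KEAP1, NRF2 then accumulates, pairs with a small MAF protein and binds antioxidant response elements beside its target genes. NRF2 activity is therefore set largely at the protein level, which RNA counts do not measure. Its targets make glutathione, regenerate thioredoxin, reduce quinones and break down heme. Fatty acid overload is a source of oxidants in liver cells, and retinoid receptors have been described as able to bind NRF2 and restrain it.

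The antioxidant response element has the core TGACNNNGC. It was searched on both strands in the RefSeq promoter windows (GRCh38.p14), taking the 250 bases before each annotated start. A window was given for 7 of the 9 genes, with 10 windows in all because NFE2L2, KEAP1 and TXNRD1 have 2 starts each. HMOX1 and SLC7A11 had no window. The core was found in 4 of the 10 windows and in 3 of the 7 genes, against 10.9% of all 35116 windows and 13.2% of the 27305 genes that have a window. The 5 matches are shown because they let the regulator KEAP1 and the targets GCLM and TXNRD1 be compared. Each is read 5′ to 3′ on the strand that carries TGACNNNGC, with the core in capitals and 10 bases on each side.
KEAP1, chr19:10502807-10502835, minus strand: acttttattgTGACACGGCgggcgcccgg
KEAP1, chr19:10502784-10502812, plus strand: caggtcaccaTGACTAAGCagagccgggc
GCLM, chr1:93909446-93909474, plus strand: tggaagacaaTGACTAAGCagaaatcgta
TXNRD1, chr12:104215670-104215698, plus strand: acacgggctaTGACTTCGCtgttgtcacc
TXNRD1, chr12:104286920-104286948, minus strand: agagtcagaaTGACAAAGCagaaatccac

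The GCLM match and the minus-strand TXNRD1 match had the same base at 19 of 29 positions, the most of any pair. The GCLM match and the plus-strand KEAP1 match shared the longest unbroken run, 13 bases. The least alike pair, the minus-strand KEAP1 match and the GCLM match, had 9 of 29 positions and a longest run of 4. The letters TGAC and GC are the same in every pair because the search required them. In the gene models of the deposited tables, both KEAP1 cores and the minus-strand TXNRD1 core lie inside annotated exons of their own gene, downstream of its most upstream start. The GCLM core begins 34 bases before the RefSeq start, and only 1 of its 9 bases lies in an annotated exon. The NQO1, GCLC, SRXN1 and NFE2L2 windows did not hold these letters, which says nothing of sites outside them. The matches describe the reference sequence and are not evidence of binding. The whole GCLM window is shown because GCLM has 1 RefSeq start and 1 core near it. It reads 5′ to 3′ on the gene's minus strand from chr1:93909431-93909680, with the core in capitals as its reverse complement.
GCLM window: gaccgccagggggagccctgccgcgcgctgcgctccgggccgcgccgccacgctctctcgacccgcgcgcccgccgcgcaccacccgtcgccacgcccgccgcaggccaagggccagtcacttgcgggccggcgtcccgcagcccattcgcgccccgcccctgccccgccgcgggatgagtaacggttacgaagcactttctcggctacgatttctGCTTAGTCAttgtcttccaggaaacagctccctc

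Total counts were 60821539 (FFA) and 57669670 (FFA + 9-cis-RA). Normalized counts are raw counts divided by the DESeq2 size factors, and log2 fold changes compare FFA + 9-cis-RA with FFA after adding 1 to each normalized count. The 95% intervals are exact (Clopper-Pearson) and cover counting error only. With 1 library per group no test against replicate error was possible, so "higher" and "lower" describe these libraries and not the treatments. The bulk counts also cannot separate fewer expressing cells from less RNA per cell. The treatment labels were checked on retinoid response genes: CYP26A1 had 4 and 709 counts, RARB 6 and 46, and DHRS3 1126 and 1999 (FFA first), each higher under FFA + 9-cis-RA. Another gene overlaps 25.3% of the exonic bases of CYP26A1, and fragments there were not counted. All 7 liver lineage markers were detected, and they differed both ways (ALB -0.70 with 186609 and 112866 counts, AFP -0.99, FGB 0.84 on the log2 scale). Of 7 markers of other cell types, PTPRC had 0 counts in both libraries, COL1A1 had at most 2 and ACTA2 had the most, 1186 and 773. Summed, they had 1440 and 946 counts. ACTA2 (-0.59), VWF (-0.61, 184 and 118 counts) and PECAM1 (-0.79, 52 and 29 counts) had intervals below 0, and CD68 (1.44, 5 and 15 counts) had one above 0. Another entry on the same strand covers 81.6% of the exonic bases of CD68, so its counts, and the sum, may be understated. The part of either marker set in the results below was not tested.

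With FFA + 9-cis-RA, 8 of the 9 had an interval above 0, and NFE2L2 alone had one below 0. Over all 20431 genes compared, the interval lay above 0 for 22.5% and below 0 for 25.7%. Intervals narrow with depth, and each of the 9 genes had at least 500 counts over both libraries. Among the 11537 genes with that many counts, a limit added after the data were seen, the interval lay above 0 for 33.2% and below 0 for 34.0%. The median log2 fold change of the 9 genes was 0.26, against -0.020 for all compared genes and 0.0037 for genes with at least 500 counts. The 7 targets had a median of 0.36 and ran from 0.050 for NQO1 to 0.94 for HMOX1. None of the 9 passed a log2 fold change of 1 in either direction, where 3.37% of all compared genes were above 1 and 4.90% were below -1.

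**Figure D1:**
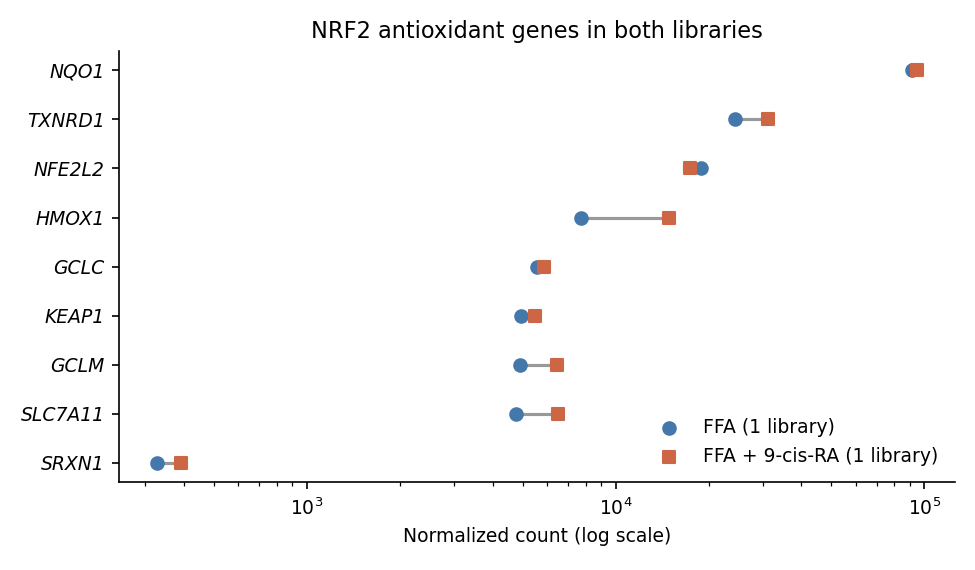
Normalized counts (x axis, log scale) of the 9 genes in the FFA library (circles) and the FFA + 9-cis-RA library (squares), 1 library each, joined by a line. HMOX1 has the longest line, from 7732 to 14844, while the NQO1 symbols nearly coincide at 91241 and 94463.

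NRF2 and its inhibitor differed in opposite directions, and both differences were small. NFE2L2 lies on chromosome 2 from 177227595 to 177392697 with 19060 counts under FFA and 17318 under FFA + 9-cis-RA. Normalized, these were 18878 and 17485, a difference of -0.11 on the log2 scale (95% interval -0.14 to -0.081). This is a difference of -7.38%, inside the middle 50% of all compared genes, which ran from -0.26 to 0.18 on the log2 scale. A noncoding entry on the same strand, ENSG00000213963, covers 18.6% of the exonic bases of NFE2L2, and fragments that touch both were not counted. That entry itself had 74 and 63 counts. KEAP1, on chromosome 19 from 10486125 to 10503558, gave 4984 and 5443 counts, or 4937 and 5495 after normalization. Its log2 fold change was 0.15 (95% interval 0.099 to 0.21). Per exonic base, the KEAP1 level was 0.415 of the NFE2L2 level under FFA and 0.499 under FFA + 9-cis-RA. The shared NFE2L2 bases are in its length but gave no counts, so its level may be understated and both ratios overstated.

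HMOX1 showed the largest difference of the 9 genes. It encodes heme oxygenase 1, the inducible enzyme that opens the heme ring to give biliverdin, iron and carbon monoxide. The gene lies on chromosome 22 from 35380361 to 35394207, and no other entry overlaps its exons on either strand. Its raw counts were 7806 under FFA and 14703 under FFA + 9-cis-RA, which is 7732 and 14844 after normalization. The log2 fold change was 0.94 (95% interval 0.90 to 0.98), a ratio of 1.92. Of all compared genes, 3.67% had a value at least as high. Among the 11537 genes with at least 500 counts only 37, HMOX1 included, were at least as high, which is 0.321%. Among the 990 genes with a mean normalized count of at least 10000, a limit set after the values were seen, 5 were at least as high, HMOX1 included. Subtracting a fitted trend on gene length put HMOX1 at 1.02, past the threshold of 1.

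NQO1 was the most abundant of the 9 genes and nearly the same in both libraries. It encodes a quinone reductase that passes 2 electrons at once from NADH or NADPH and so avoids semiquinone radicals, and it is widely used as a readout of NRF2. The gene lies on chromosome 16 from 69706996 to 69726668. Its counts were 92119 and 93563, or 91241 and 94463 after normalization, a difference of 0.050 on the log2 scale (95% interval 0.037 to 0.063). The interval leaves out 0 because of the depth, and 39.7% of all compared genes had a value at least as high. Under the alternatives tried its value ran from 0.044 to 0.14.

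**Figure D2:**
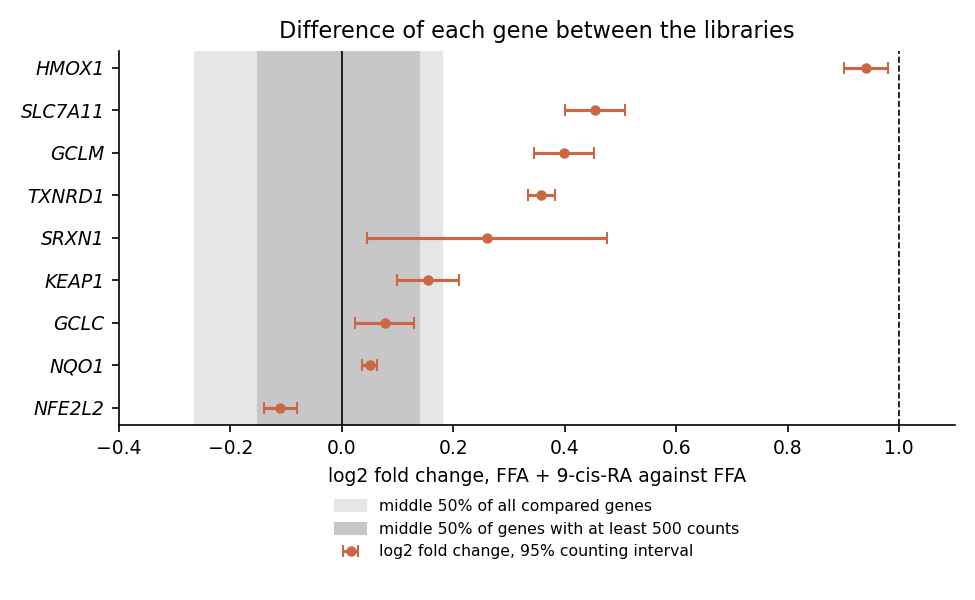
Log2 fold changes of the 9 genes (x axis, FFA + 9-cis-RA against FFA, 1 library each) with exact 95% counting intervals as bars. The shaded bands hold the middle 50% of all compared genes (-0.26 to 0.18) and of genes with at least 500 counts (-0.15 to 0.14), and the dashed line marks 1. HMOX1, SLC7A11, GCLM and TXNRD1 have intervals wholly to the right of both bands.

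All 3 glutathione supply genes had more counts under FFA + 9-cis-RA, but unequally. SLC7A11 encodes the cystine importer xCT, which brings in the cysteine for glutathione in exchange for glutamate. Its locus is on chromosome 4 from 138164097 to 138242349, and its counts were 4804 and 6457, or 4758 and 6519 after normalization. Its log2 fold change was 0.45 (95% interval 0.40 to 0.51), the second highest of the 9. SLC3A2, which encodes the heavy chain that carries xCT to the membrane, gave 26217 and 31650 counts, a difference of 0.30 on the log2 scale (95% interval 0.28 to 0.32).

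Glutamate-cysteine ligase, the rate-limiting enzyme of glutathione synthesis, is built from a catalytic subunit, GCLC, and a modifier subunit, GCLM, which makes the catalytic subunit more active. GCLM, on chromosome 1 from 93885199 to 93909456, gave 4956 and 6411 counts, or 4909 and 6473 after normalization. Its log2 fold change was 0.40 (95% interval 0.35 to 0.45). GCLC, on chromosome 6 from 53497341 to 53616970, gave 5631 and 5827 counts, or 5577 and 5883 after normalization. Its log2 fold change was 0.077 (95% interval 0.024 to 0.13), and after removal of the length trend it was 0.048 with an interval that held 0. A noncoding entry on the same strand covers 6.1% of the exonic bases of GCLC. Per exonic base, GCLM RNA stood at 1.40 times GCLC RNA under FFA and at 1.75 times under FFA + 9-cis-RA. The log2 change of this ratio was 0.32 (95% interval 0.25 to 0.40, by a normal approximation to counting error). Both ratios may be overstated because of the shared GCLC bases.

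The remaining pair acts on protein thiols. TXNRD1 encodes the cytosolic thioredoxin reductase, a selenoprotein that returns thioredoxin to its reduced form with NADPH. Its locus is on chromosome 12 from 104215779 to 104350307, and its counts were 24539 and 30855, or 24305 and 31152 after normalization. Its log2 fold change was 0.36 (95% interval 0.33 to 0.38), and 5.47% of genes with at least 500 counts had a value at least as high. SRXN1 encodes sulfiredoxin, which repairs overoxidized peroxiredoxins. Its locus is on chromosome 20 from 646615 to 653370, and its counts were 331 and 389, or 327.8 and 392.7 after normalization. Its log2 fold change of 0.26 had the widest interval of the 9, 0.045 to 0.48. An overlapping entry on the same strand, ENSG00000270299, covers 85.0% of the exonic bases of SRXN1 and had 0 counts in both libraries. Fragments that touch the shared bases were not counted for either entry, so the SRXN1 counts rest on fragments within the other 406 of its 2698 bases, and its level is understated.

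**Figure D3:**
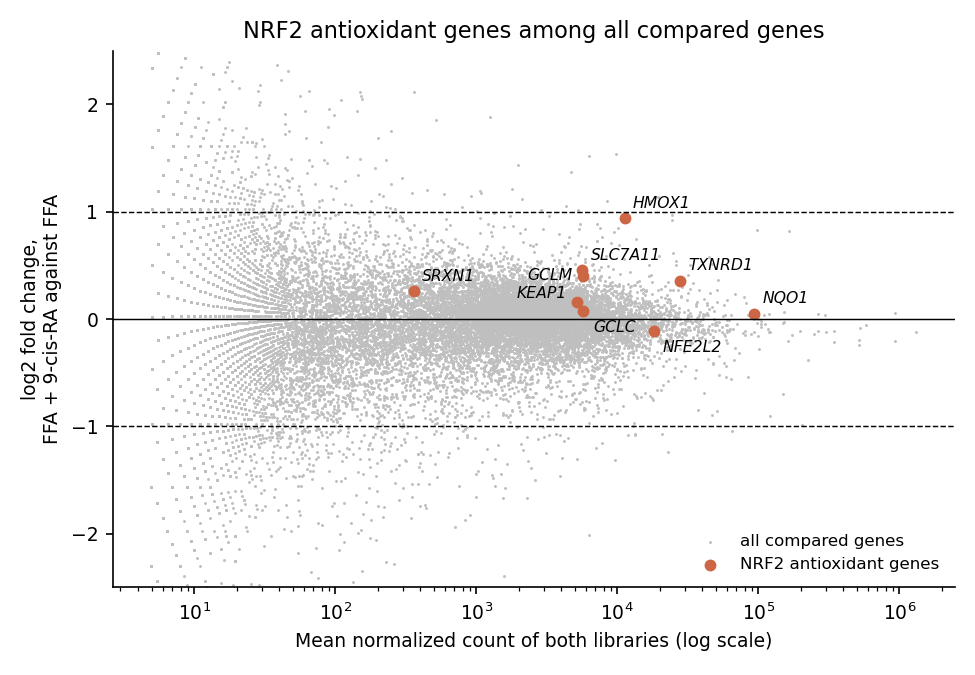
Log2 fold change (y axis) against the mean normalized count of both libraries (x axis, log scale) for all compared genes (grey) and the 9 genes (orange). Dashed lines mark 1 and -1, and 97 genes fall outside the plotted range of 2.5 in either direction. HMOX1 sits just under the upper line at the right, where few grey points lie as high, and SRXN1 is the only one of the 9 with a mean under 500.

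Levels of different genes were compared as fragments per kilobase of exonic length, scaled to the library total (FPKM). In the FFA library NQO1 led with 509.8 FPKM, rank 46 of the 20431 compared genes. TXNRD1 at 60.1, HMOX1 at 55.8 and NFE2L2 at 55.3 followed, and the exact Poisson intervals of HMOX1 and NFE2L2 met. Then came KEAP1 at 22.9, GCLM at 15.0, GCLC at 10.7, SLC7A11 at 8.19 and SRXN1 at 2.02 FPKM, the last being understated for the reason above. NFE2L2 and GCLC may be understated in the same way, with 18.6% and 6.1% of their exonic bases shared. The place of NFE2L2 beside TXNRD1 and HMOX1 is therefore uncertain.

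In the FFA + 9-cis-RA library NQO1 again led, with 546.1 FPKM, and HMOX1 stood second at 110.9. HMOX1 moved from rank 742 to rank 306 among all compared genes. TXNRD1 had 79.7 FPKM, NFE2L2 53.0, KEAP1 26.4 and GCLM 20.5. GCLC at 11.7 and SLC7A11 at 11.6 had intervals that met, and SRXN1 was at 2.5. Set against NFE2L2, the HMOX1 level was 1.01 times as high under FFA and 2.09 times as high under FFA + 9-cis-RA. Both ratios may be overstated because of the shared NFE2L2 bases. The shared GCLC bases likewise limit its comparison with SLC7A11.

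Other genes of the pathway were described by lists of known members, by role, without a set test. Each list's counts stand beside the shares among all genes with at least 500 counts, 33.2% above 0 and 34.0% below 0. Some lists also hold genes under 500 counts, whose wider intervals leave out 0 less readily. Over all compared genes the shares were 22.5% above 0 and 25.7% below 0. The genes named at each end were ordered by the interval bound nearer to 0. Of 16 partners and regulators of NRF2, 7 (43.8%) had an interval above 0, 5 (31.2%) below 0 and 4 held 0. Their median log2 fold change was 0.026, and 0.073 with total-count scaling. At the higher end were CREBBP, a coactivator, at 0.36, and the related factors NFE2L3 at 0.30 and NFE2L1 at 0.29. At the lower end were the small MAF gene MAFF at -0.20, DPP3, whose product competes with NRF2 for KEAP1, at -0.12, and CUL3, the scaffold of the KEAP1 ligase, at -0.092. BACH1, which encodes a repressor of HMOX1 and was picked here for that role, had 2328 and 2329 counts, and its interval held 0 (-0.055 to 0.11).

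Of 18 glutathione enzymes and transporters beyond the 9 genes, 6 (33.3%) had an interval above 0, 7 (38.9%) below 0 and 5 held 0, shares near those among all genes with at least 500 counts. The median was -0.011, and it was above 0 with TMM (0.0090) or total-count scaling (0.038) and with the length (0.082) or expression trend (0.044) removed. At the higher end were CTH, which makes cysteine from cystathionine, at 0.43, SLC3A2, and GGT1 at 0.44. Another entry covers 56.9% of the exonic bases of GGT1. At the lower end were GLRX, a glutaredoxin, at -0.61, OPLAH, which opens 5-oxoproline, at -0.44, and GPX7 at -0.37. GLRX had 7258 and 4667 counts.

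Unlike TXNRD1 and SRXN1, most of the other thioredoxin and peroxiredoxin genes had an interval below 0. Of 14 genes compared, 9 (64.3%) had an interval below 0, 2 (14.3%) above 0 and 3 held 0, where 34.0% and 33.2% of all genes with at least 500 counts did. The median was -0.12, and it was -0.073 with total-count scaling and -0.035 with the length trend removed. All 6 peroxiredoxin genes, PRDX1 to PRDX6, had an interval below 0, from -0.24 for PRDX1 to -0.061 for PRDX4, but 5 of them did with TMM or total-count scaling or the expression trend removed, and 4 with the length trend removed, where the highest stood at 0.035. TXN, which encodes the thioredoxin that TXNRD1 reduces, gave 6148 and 4764 counts, a difference of -0.34 on the log2 scale (95% interval -0.40 to -0.29). TXN has 1010 exonic bases, and its own value with the length trend removed is not shown here. SESN1 was at -0.22. On the other side, SESN3, a sestrin gene regulated by FOXO factors, had 137 and 298 counts and a log2 fold change of 1.14, and SESN2 was at 0.31.

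The NADPH that these reductases use comes largely from the pentose phosphate pathway and a few other dehydrogenases. Of 4 genes compared from these routes, PGD at 0.31 and TKT at 0.059 had intervals above 0. TALDO1 at -0.17 and IDH1 at -0.10 had intervals below 0. ME1 had 2 and 3 counts, too few to compare.

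Of 7 genes next to HMOX1 in heme and iron handling, 2 (28.6%) had an interval above 0, 3 (42.9%) below 0 and 2 held 0, not far from the shares among all genes with at least 500 counts. The median of -0.050 became -0.00040 with total-count scaling and 0.054 with the length trend removed. HMOX2, the constitutive heme oxygenase, gave 2909 and 4174 counts, a difference of 0.55 on the log2 scale (95% interval 0.48 to 0.62). FECH, the last enzyme of heme synthesis, was at 0.33. The ferritin genes FTL and FTH1 were at -0.19 and -0.20. With the length trend removed the pair lay between -0.11 and -0.074, and with the expression trend removed between -0.10 and -0.063. SLC40A1, the iron exporter, was at -0.17. Both ferritin genes have many processed pseudogenes, and fragments that map to several places were not counted. Among superoxide and peroxide enzymes, SOD1 was at -0.22 and CAT at -0.16, SOD3 had 1 count in each library, and SOD2 was not analysed here because its symbol could not be matched to an identifier used in the tables.

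Detoxification and transport genes that NRF2 is also known to regulate held the lowest value of the pathway lists. Of 28 genes compared, 15 (53.6%) had an interval below 0, 6 (21.4%) above 0 and 7 held 0, where 34.0% and 33.2% of all genes with at least 500 counts did. The median was -0.090, and -0.041 with total-count scaling. AKR1C1, an aldo-keto reductase gene that is among the strongest NRF2 targets in human cells, gave 32273 and 13449 counts, a difference of -1.23 on the log2 scale (95% interval -1.26 to -1.21). The related AKR1B10 had 48789 and 26663 counts and a value of -0.84, and GSTA1, a glutathione transferase gene, had 11869 and 6321 counts and a value of -0.88. These genes have close paralogs, among which the counting could lose shared fragments. At the higher end were CES1 at 0.61, UGT1A6 at 0.86 and NQO2 at 0.47. Entries of the same UGT1A cluster cover 44.2% of the exonic bases of UGT1A6. CBR3 had 0 counts in both, where levels up to the limit of 3 counts, 0.0493 CPM (FFA) and 0.0520 CPM (FFA + 9-cis-RA), cannot be told from 0.

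**Figure D4:**
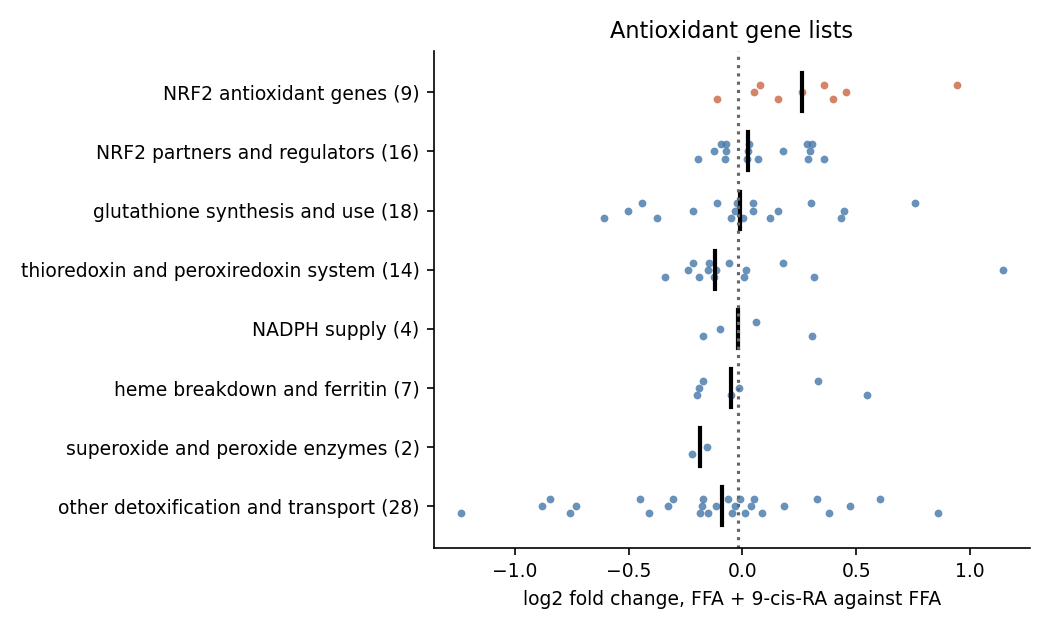
Log2 fold changes (x axis, FFA + 9-cis-RA against FFA) of each compared gene in 8 lists, 1 point per gene and its list's number in parentheses, with a black bar at the list median and a dotted line at the median of all compared genes (-0.020). Points are spread vertically only for legibility. The 9 NRF2 antioxidant genes (orange) have a median of 0.26, and AKR1C1 is the lowest point at -1.23.

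SLC7A11 is also a target of ATF4, the factor of the integrated stress response. Of 6 genes on a list for that factor, 4 (66.7%) had an interval above 0, 1 (16.7%) below 0 and 1 held 0, where 33.2% and 34.0% of all genes with at least 500 counts did. The list median was 0.17, and 0.22 with total-count scaling. With a minimum of 500 counts, which leaves out CHAC1, it was 0.031. CHAC1 and SESN2 are also on the glutathione and the thioredoxin list. ATF4 itself was at -0.0017 (95% interval -0.022 to 0.018), DDIT3 at -0.23, ASNS at 0.43, TRIB3 at 0.031, CHAC1 at 0.76 on 34 and 57 counts and SESN2 at 0.31. Another entry covers 49.3% of the exonic bases of ASNS. The part of ATF4 in the SLC7A11 value was not tested.

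The retinoid receptors that the added 9-cis-RA binds were detected at different levels. RXRA gave 8291 and 5978 counts, a difference of -0.44 on the log2 scale (95% interval -0.49 to -0.40), while RXRB was at 0.30 and RARA at 0.20, both with intervals above 0. RARB, itself a retinoid response gene, was at 2.77 on 6 and 46 counts (95% interval 1.73 to 4.49). RARG was at 0.30 with an interval that held 0, and RXRG had 7 and 4 counts.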

How the data were processed

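Poly(A) RNA of 2 stranded HepG2 libraries, 1 per group, was analysed. The deposited values are raw counts of fragments, made by the authors with featureCounts version 2.0.1, for pairs with both ends mapped and an accepted fragment length, on the reverse strand. Multi-mapping fragments and those over more than 1 gene were left out, which lowers counts of overlapping and near-identical genes. The labels give GRCh38 as the build and name DESeq2. The aligner and annotation release are not given in the sources used here.

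Ensembl identifiers were matched to symbols (42005 of 60623 entries). Size factors came from DESeq2 version 1.42.0 and TMM factors, an alternative, from edgeR version 4.0.16 in R version 4.3.3. No model was fitted, since there is no replicate error, and no p-value is given. Only genes whose counts over both libraries reached 10 were compared, with a pseudocount of 1, which understates differences of low counts. Clopper-Pearson intervals, Poisson intervals and loess trends (span 0.3) used scipy 1.17.1 and statsmodels 0.14.6. The fold change, counting interval and trend removal steps were run on simulated Poisson counts. Those counts held no spread between cultures, and the size factors and the other steps were not tested this way. In the other lists, at most 3 genes at each end were named, taking the order from the nearer interval bound and genes reaching a normalized count of 100 in either library. PRDX4, BACH1, CHAC1, ATF4, RARG, RXRG, PECAM1, CD68 and genes set beside a member were named outside this rule, after their values were seen. RARB, also under a normalized count of 100, was named as a retinoid response gene used to check the labels. Genes of the lists under the minimum of 10 counts were named as well. 1 gene considered for a list was left out and is not reported here. The genes and lists were chosen with earlier results of these data known.

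The alternatives tried were scaling by TMM or by totals, a pseudocount of 0.1 or 5, different minimums, restriction to protein-coding genes, removal of trends on length and expression, and the whole interval past 1.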

Additional observations from a re-analysis of the deposited data

How the results depend on the processing

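The count of 8 higher and 1 lower gene held under every alternative except removal of the length trend, where 7 were higher and 1 lower because the GCLC interval then held 0. Under that alternative 1 gene, HMOX1, was above 1, and under all others none was. Of 45 values of single genes under another scaling, a trend removal or protein-coding genes only, 35 stayed inside their counting interval, 10 moved past it and none changed sign. The other 45, under other pseudocounts and count minimums, could hardly move, since each gene had over 500 counts. Total-count scaling put NFE2L2 at -0.062, HMOX1 at 0.99 and TXNRD1 at 0.41, and removal of the expression trend put NQO1 at 0.14. The median of the 9 genes ran from 0.25 with protein-coding genes only to 0.33 with the length trend removed. Of 80 medians of other lists, 10 moved past their counting range. Of all genes, 689 were above 1 and 1002 below -1, against 341 and 594 with a pseudocount of 5, 3771 and 2493 with no count minimum, 153 and 361 at a minimum of 50, and 27 and 102 at a minimum of 500. Among protein-coding entries they were 270 and 451 with size factors from them, and 270 and 446 with the main size factors. Why the other entries differ was not tested. The minimum of 500 counts was added after the data were seen. With 1 library per group the spread between cultures cannot be measured, and no library could be left out.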
